A study of Mus musculus with 8 samples.

Results

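The miR-200 family was examined in mouse kidney with and without ureteral obstruction. Its members were taken by name as the 5 guide strands mmu-miR-200b-3p, mmu-miR-200a-3p, mmu-miR-429-3p, mmu-miR-200c-3p and mmu-miR-141-3p, and the 4 opposite strands mmu-miR-200b-5p, mmu-miR-200a-5p, mmu-miR-200c-5p and mmu-miR-141-5p (mmu, for mouse, is left out where a name recurs). These 9 miRNAs, out of 1881 mouse miRNAs on the array, were measured by 25 probes. Unilateral ureteral obstruction (UUO) blocks the outflow of urine from 1 kidney, which is followed by tubule injury, inflammation and fibrosis. Kidney tissue from male C57BL/6 mice aged 8 weeks was taken 7 days after UUO surgery (UUO 1 to 4) or after a sham operation (Sham 1, 2, 3 and 8). RNA from each of the 8 samples was hybridised to 1 single-colour Agilent miRNA array. No genetic change or drug is given for either group, and the labels do not say in words that each sample was a different mouse, so the p-values measure the spread between samples.

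The miR-200 family is typical of epithelial cells, such as those that line the kidney tubules and collecting ducts. Its guide strands pair through their seed with the messenger RNAs of Zeb1 and Zeb2, which are repressors of E-cadherin and drivers of epithelial-mesenchymal transition, and the Zeb proteins in turn repress the miR-200 genes. Messenger RNAs were not measured on these arrays. The family comes from a pair of gene clusters, each transcribed as a unit, and both clusters supply a member of each of the family's guide seeds.

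The mature sequences show why the clusters can be compared strand by strand, since each guide of the chromosome 6 cluster has a partner with the same seed in the chromosome 4 cluster. The sequences are those of RefSeq on mouse build GRCm38.p6, in which all 9 members were found, and the capitals mark the seed (bases 2 to 8). The first 3 come from the chromosome 4 cluster, and the last 2 from the chromosome 6 cluster.
miR-200b-3p: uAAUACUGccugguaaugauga
miR-200a-3p: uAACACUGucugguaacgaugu
miR-429-3p: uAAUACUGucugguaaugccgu
miR-200c-3p: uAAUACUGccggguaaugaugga
miR-141-3p: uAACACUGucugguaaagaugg

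The seed AAUACUG was shared by 3 guides (miR-200b-3p, miR-429-3p and miR-200c-3p) and AACACUG by 2 (miR-200a-3p and miR-141-3p), and the seeds differ by 1 base. Neither seed occurred in any other of the 1679 mature mouse miRNAs of the RefSeq table. A messenger RNA site for the first seed reads CAGUAUU and for the second CAGUGUU. Partners across the clusters were nearly identical: miR-200a-3p and miR-141-3p differed at 2 of 22 bases, as did miR-200b-3p and miR-200c-3p, while miR-429-3p and miR-200c-3p differed at 5. The opposite strands were more diverse. The seed AUCUUAC was shared by miR-200b-5p and miR-200a-5p, and miR-200c-5p and miR-141-5p had seeds of their own.
miR-200b-5p: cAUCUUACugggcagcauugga
miR-200a-5p: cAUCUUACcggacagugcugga
miR-200c-5p: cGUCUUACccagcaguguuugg
miR-141-5p: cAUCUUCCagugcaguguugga

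Both clusters lie on the minus strand. The hairpins of Mir200b, Mir200a and Mir429 span 1846 bases at chr4:156053905-156055750 and overlap the long noncoding RNA gene Gm13648, with Ttll10 and 9430015G10Rik as the nearest protein-coding genes. The guide strands of that cluster lie at chr4:156055685-156055706 (miR-200b-3p), chr4:156054911-156054932 (miR-200a-3p) and chr4:156053916-156053937 (miR-429-3p). The hairpins of Mir200c and Mir141 span 477 bases at chr6:124717914-124718390, overlap no other annotated gene and lie between Phb2 and Ptpn6. Their guide strands lie at chr6:124718324-124718346 (miR-200c-3p) and chr6:124717917-124717938 (miR-141-3p).

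Because partners are so alike, the array probes are shown for the bases that tell them apart. Each is the brightest probe of its miRNA, written 5′ to 3′ as DNA, with capitals at the bases that would not pair with the named partner.
miR-200a-3p probe against miR-141-3p: AcatcGttaccagacagt
miR-141-3p probe against miR-200a-3p: CcatcTttaccagacag
miR-200b-3p probe against miR-200c-3p: TcatcattaccAggcag
miR-200c-3p probe against miR-200b-3p: TCcatcattaccCggc
miR-429-3p probe against miR-200b-3p: AcGGcattaccagAcagt

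The probes for miR-200a-3p and miR-141-3p each had 2 bases that mismatch the other miRNA, the miR-200b-3p probe had 2 against miR-200c-3p, and the miR-200c-3p probe had 3 against miR-200b-3p. Whether a probe also captured its partner was not tested. The changes of the partners' probes between the groups are given further on.

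Each array carried 56430 spots for mouse miRNAs, of which 2.64 to 2.95% were left out as outliers and none was saturated. Between 720 and 800 of 4415 probes were detected per array. Signals are given as log2 of the probe's mean intensity divided by a reference level of the array, the 75th percentile of the 623 probes that every array detected. That percentile was 394 to 413 intensity units in Sham and 435 to 482 in UUO, before scaling. The 408 miRNAs detected on at least 4 arrays were tested with limma, and a miRNA was called at a Benjamini-Hochberg adjusted p under 0.05 over all of them. Scaled signals of different probes are not compared, because brightness also depends on the probe.

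In UUO kidneys the 3 guide strands of the chromosome 4 cluster and both of its measured opposite strands were lower than in Sham. With the scaling used here the guides of the chromosome 6 cluster were not called in either direction, but both were called higher in 3 of 8 scalings. Of the 9 members 7 were tested, each detected on all 8 arrays, and 2 were detected on none. Of the 7 tested, 5 were called lower and 0 higher (limma, adjusted p under 0.05), beside 27.7% of all tested miRNAs called lower and 39.7% called higher. The groups did not overlap for those 5, beside 61.3% of all tested miRNAs. At an unadjusted p under 0.05 the same 5 members were past the threshold and the other 2 were not. The calls of the 5 rest on the scaling: none of them was called when arrays were scaled to the array's dmr control features. The direction did so for 1 of them, since miR-429-3p then stood at 0.00413, while the other 4 were below 0 in all 8 scalings tried. The median change of the 7 was -0.32 on the log2 scale, against 0.06 for all tested miRNAs.

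mmu-miR-200b-3p, the first hairpin of its cluster in the direction of transcription, had scaled signals of 3.27, 3.18, 3.22 and 3.34 (log2) in Sham 1, 2, 3 and 8 and of 2.91, 3.01, 2.92 and 2.82 in UUO 1 to 4. Every UUO sample lay below every Sham sample. It fell by 0.34 ± 0.06 (SE, n = 4 per group) on the log2 scale, which is 20.8% lower (limma adjusted p = 0.00113). Before scaling, its intensity ran from 3572 to 4169 in Sham and from 3396 to 3621 in UUO, so the unscaled ranges overlapped.

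mmu-miR-200a-3p, which carries the other guide seed of the cluster, had the largest decrease of the members with the scaling used here, whereas under quantile normalization its decrease was the smallest of the 5 (-0.12, not called, limma adjusted p = 0.0590). Its signals were 3.10, 2.94, 2.95 and 3.12 in Sham 1, 2, 3 and 8 and 2.61, 2.68, 2.56 and 2.49 in UUO 1 to 4. Sham 1 and Sham 8 were the highest, and the lowest Sham sample stood above the highest UUO sample. It fell by 0.44 ± 0.06 (SE) on the log2 scale, or 26.2% (limma adjusted p = 0.000494). Before scaling its groups did not overlap either, at 3025 to 3575 intensity units in Sham and 2706 to 2942 in UUO.

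mmu-miR-429-3p shares its seed with miR-200b-3p. Its signals were 2.04, 2.02, 2.03 and 2.05 in Sham 1, 2, 3 and 8 and 1.78, 1.85, 1.75 and 1.62 in UUO 1 to 4. The Sham samples were nearly equal, with an SD of 0.01, and UUO 4 was the lowest of all. It fell by 0.28 ± 0.06 (SE), or 17.7% (limma adjusted p = 0.00222). Before scaling the ranges overlapped, at 1595 to 1708 in Sham and 1483 to 1660 in UUO.

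The tissue was bulk kidney, in which fewer cells of a type and less miRNA per cell cannot be told apart. All Sham arrays lay in row 1 of the slide and all UUO arrays in row 2, so the row and the group cannot be told apart.

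**Figure D1:**
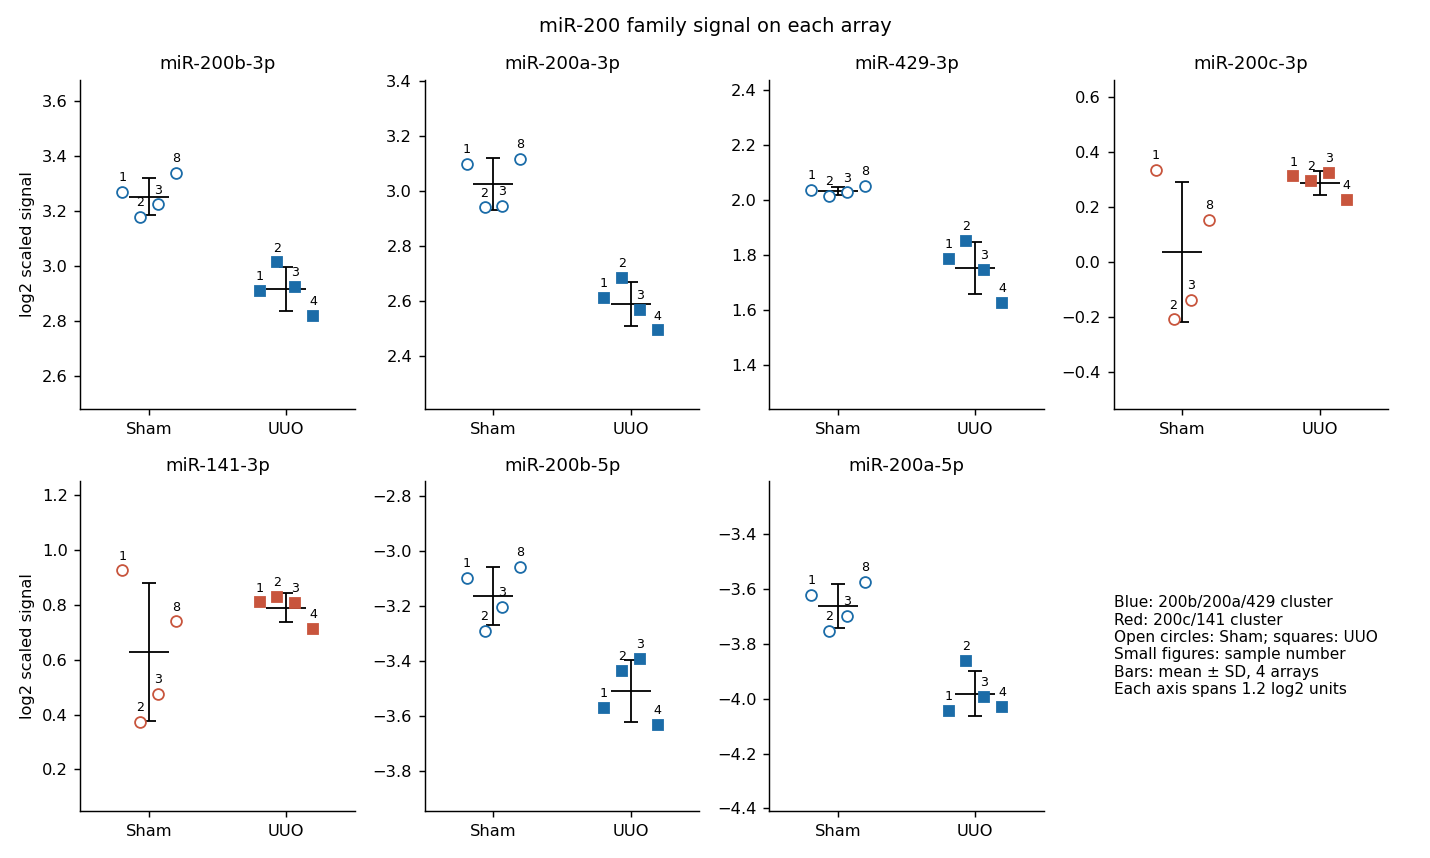
Scaled signal (log2, vertical axis, 1.2 units in each panel) of the 7 tested family members on each array, with Sham as open circles, UUO as squares, sample numbers beside the points, and bars for the mean ± SD of 4 arrays. All UUO points lie below all Sham points for the 5 members of the chromosome 4 cluster (blue), while for miR-200c-3p and miR-141-3p (red) the groups overlap and the Sham samples spread with an SD of 0.25. With scaling to dmr control features miR-429-3p stood at a change of 0.00413. Before scaling, the groups of miR-200c-3p did not overlap, and both red guides were called higher in 3 of 8 scalings.

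mmu-miR-200c-3p, the partner of miR-200b-3p on chromosome 6, had signals of 0.34, -0.21, -0.14 and 0.15 in Sham 1, 2, 3 and 8 and of 0.31, 0.30, 0.32 and 0.23 in UUO 1 to 4. The UUO samples lay close together, and Sham 1 was above all of them. The change was 0.25 ± 0.12 (SE, n = 4 per group), which did not pass the test (limma adjusted p = 0.0888). Before scaling its groups did not overlap, at 341 to 522 intensity units in Sham and 533 to 598 in UUO. mmu-miR-141-3p, the partner of miR-200a-3p, had signals of 0.92, 0.37, 0.48 and 0.74 in Sham 1, 2, 3 and 8 and of 0.81, 0.83, 0.81 and 0.71 in UUO 1 to 4. Again Sham 1 was the highest sample of all and Sham 2 the lowest. Its change was 0.16 ± 0.12 (SE; limma adjusted p = 0.251). Before scaling its ranges overlapped, at 511 to 784 in Sham and 772 to 844 in UUO. Without scaling both guides were called higher, miR-200c-3p at 0.45 (limma adjusted p = 0.0153) and miR-141-3p at 0.36 (limma adjusted p = 0.0354). They were called higher in 3 of 8 scalings and stood below 0, uncalled, in 2.

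Both chromosome 6 guides ranked the Sham samples in the same order, with Sham 1 highest, then Sham 8, Sham 3 and Sham 2. The SD of each was 0.25 in Sham and 0.04 or 0.05 in UUO, whereas for the chromosome 4 guides it was 0.01 to 0.10 in either group. Without Sham 1, both were called higher, miR-200c-3p at 0.36 (limma adjusted p = 0.0103) and miR-141-3p at 0.26 (adjusted p = 0.0330). Among the changes of all tested miRNAs, that of miR-200c-3p stood at percentile 60.8 and that of miR-141-3p at 55.6, while those of the chromosome 4 members stood between percentiles 18.9 and 23.5.

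The opposite strands, which are usually degraded after the guide is loaded, were dim. miR-200b-5p had signals of -3.10, -3.29, -3.20 and -3.06 in Sham 1, 2, 3 and 8 and of -3.57, -3.44, -3.39 and -3.63 in UUO 1 to 4, and the groups did not overlap. It fell by 0.35 ± 0.08 (SE; limma adjusted p = 0.00392). miR-200a-5p stood at -3.62, -3.75, -3.70 and -3.57 in Sham and at -4.04, -3.86, -3.99 and -4.03 in UUO 1 to 4, again without overlap. It fell by 0.32 ± 0.06 (SE; limma adjusted p = 0.00192).

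Both strands could be compared for 2 of the 5 hairpins. The log2 difference between miR-200b-3p and miR-200b-5p on the same array changed by 0.01 from Sham to UUO, and that between miR-200a-3p and miR-200a-5p by -0.12. Both differences overlapped between the groups. Under quantile normalization these changes were 0.45 and 0.39, with the opposite strand falling further than the guide in both hairpins. The median coefficient of variation over the spots of a probe was 2.16 to 4.59% for guide probes and 7.46 to 18.0% for opposite-strand probes, so the dim strands were measured less precisely.

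miR-200c-5p and miR-141-5p were not tested. All 4 probes of miR-200c-5p lay between -2.67 and 3.20 intensity units on every array, which is background. The 17-base probe of miR-141-5p read 6.94, 4.85, 4.20 and 5.11 intensity units in Sham 1, 2, 3 and 8 and 10.9, 10.8, 8.71 and 8.93 in UUO 1 to 4. The UUO readings of that probe were all higher, but those of the 16-base probe overlapped (4.75 to 6.24 in Sham and 5.60 to 8.27 in UUO), and the 2 shorter probes lay between -1.90 and 2.30. For all 4 probes, no more than 50% of the spots were well above background on any array. The scanner software's own rule listed miR-141-5p as detected on 0 of 4 Sham and 4 of 4 UUO arrays, with a total signal of 0.1 (its value for not detected) in Sham and 1.21 to 2.24 in UUO. No fold is given for readings so near background.

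Probe by probe, the directions were those of the members. Of the 25 family probes, 16 were detected on all 8 arrays and 9 on none. Of the 16, 12 were called lower and 1 higher (limma, adjusted over 771 probes), beside 27.2% of all tested probes called lower and 41.1% called higher. All 12 lower calls were the chromosome 4 probes, with 2 probes each for miR-200b-3p, miR-200a-3p and miR-429-3p and 3 each for miR-200b-5p and miR-200a-5p. With the dmr scaling 1 of the 12 was called lower. Some opposite-strand probes stood near the floor of -4.89 in UUO, with means of -4.63 (miR-200b-5p, 13 bases) and -4.76 (miR-200a-5p, 14 bases). With the floor doubled 8 family probes were called lower.

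The 1 probe called higher was the 15-base probe of miR-200c-3p, at -0.55, -1.13, -0.99 and -0.76 in Sham 1, 2, 3 and 8 and at -0.46, -0.47, -0.49 and -0.54 in UUO 1 to 4. Here the groups did not overlap, although Sham 1 lay just below UUO 4. Its change was 0.37 ± 0.12 (SE; limma adjusted p = 0.0225), against 0.25 ± 0.12 for the brighter 16-base probe of the same miRNA (adjusted p = 0.0890). The probes of miR-141-3p changed by 0.26 ± 0.12 (16 bases) and 0.16 ± 0.12 (17 bases), with adjusted p = 0.0823 and 0.250. Without Sham 3 no family probe was called higher, and without Sham 1 all 4 chromosome 6 probes were.

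**Figure D2:**
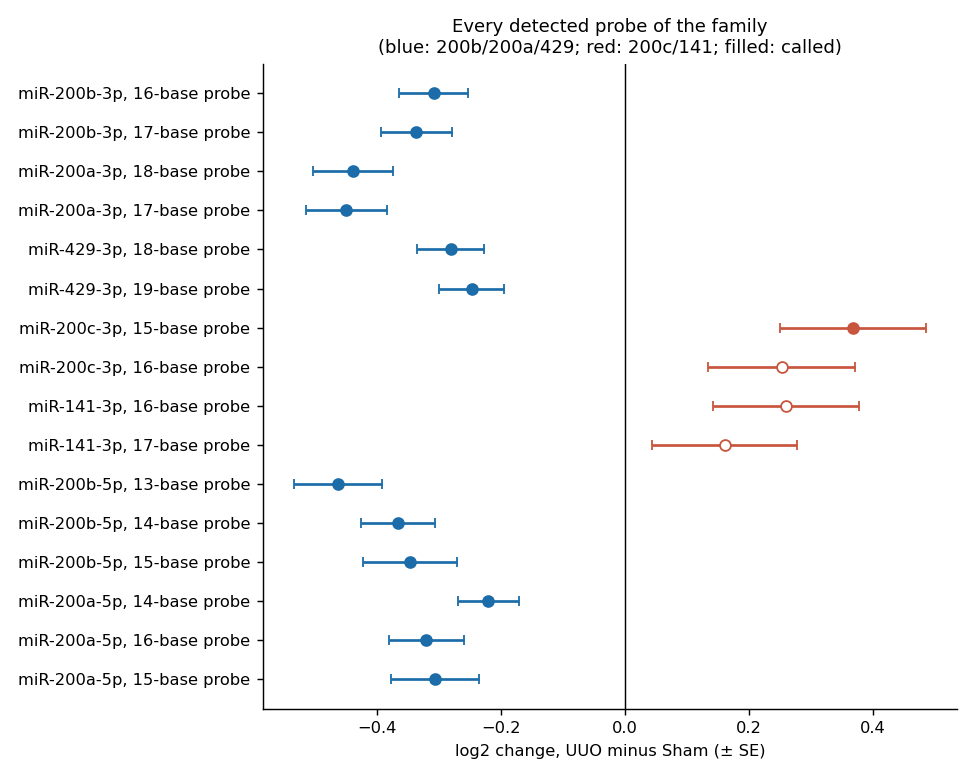
Change of each of the 16 detected family probes (log2, UUO minus Sham, horizontal axis, with bars for ± SE), filled where called and open where not. The 12 chromosome 4 probes (blue) lie between -0.46 and -0.22, and the 4 chromosome 6 probes (red) between 0.16 and 0.37, of which 1 is filled. With scaling to dmr control features 1 chromosome 4 probe was called lower, and with the floor doubled 8 family probes were.

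To compare the clusters without the array's scale, the log2 difference between partners with the same seed was taken on each array. Such a difference is not moved by any factor that multiplies a whole array. The difference between miR-200a-3p and miR-141-3p was 2.17, 2.57, 2.47 and 2.38 in Sham 1, 2, 3 and 8 and 1.80, 1.85, 1.76 and 1.78 in UUO 1 to 4. The groups did not overlap, and the ratio of miR-200a-3p to miR-141-3p was 1.51-fold lower in UUO (a log2 change of -0.60).

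For miR-200b-3p and miR-200c-3p the difference was 2.93, 3.39, 3.36 and 3.18 in Sham 1, 2, 3 and 8 and 2.60, 2.72, 2.60 and 2.59 in UUO 1 to 4. The ratio was 1.50-fold lower in UUO (a log2 change of -0.59), without overlap. For miR-429-3p and miR-200c-3p it was 1.70, 2.22, 2.16 and 1.90 in Sham and 1.47, 1.56, 1.42 and 1.40 in UUO 1 to 4. That ratio was 1.45-fold lower (a log2 change of -0.53), again without overlap, with Sham 1 nearest to the UUO samples in all 3 pairs.

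Each of the 3 pairs reached p = 0.0286 in a 2-sided exact permutation test, which is the smallest p that 4 against 4 samples can give, and 0.0286 after adjustment over the 3 pairs. With 4 against 4 samples, any pair whose groups do not overlap gives that p. Within a cluster, the groups did not overlap either for miR-200b-3p with miR-200a-3p, miR-200a-3p with miR-429-3p or miR-200c-3p with miR-141-3p, which were not tested. The p therefore does not set differences between clusters apart from those within a cluster. The 3 tested pairs are not independent, since miR-200c-3p is in 2 of them. Under quantile normalization, which reshapes each array, the changes were -0.20, -0.35 and -0.48 in the order given above and the exact permutation p rose to 0.0857 adjusted. With 7 arrays the exact p moves in coarse steps: the adjusted p was 0.0286 without any 1 Sham array and 0.0571 without any 1 UUO array, where the changes were -0.62 to -0.51.

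Averaged over its 3 guides, the chromosome 4 cluster stood at 2.71 to 2.84 (log2) in Sham and 2.31 to 2.52 in UUO, a change of -0.35. The mean of the 2 chromosome 6 guides was 0.08 to 0.63 in Sham and 0.47 to 0.57 in UUO, a change of 0.21 with overlapping groups. The difference between the cluster means was 2.17 to 2.63 in Sham and 1.84 to 1.95 in UUO, a change of -0.56 with no overlap. These means are given as descriptions, with no test.

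With the scaling used here, guides of the same cluster stayed much closer to each other. The difference between miR-200c-3p and miR-141-3p was -0.59, -0.58, -0.61 and -0.58 in Sham 1, 2, 3 and 8 and -0.50, -0.53, -0.48 and -0.49 in UUO 1 to 4, so that guides that each spread with an SD of 0.25 in Sham kept their difference within an SD of 0.01. That difference changed by 0.09, without overlap. On chromosome 4 the difference between miR-200b-3p and miR-200a-3p changed by 0.10 and that between miR-200a-3p and miR-429-3p by -0.16, both without overlap. The difference between miR-200b-3p and miR-429-3p, which share a seed and a cluster, changed by -0.06, with overlap. Under quantile normalization miR-200a-3p changed by -0.12 and miR-429-3p by -0.29. That gap within a cluster was close in size to the -0.20 of miR-200a-3p with miR-141-3p.

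**Figure D3:**
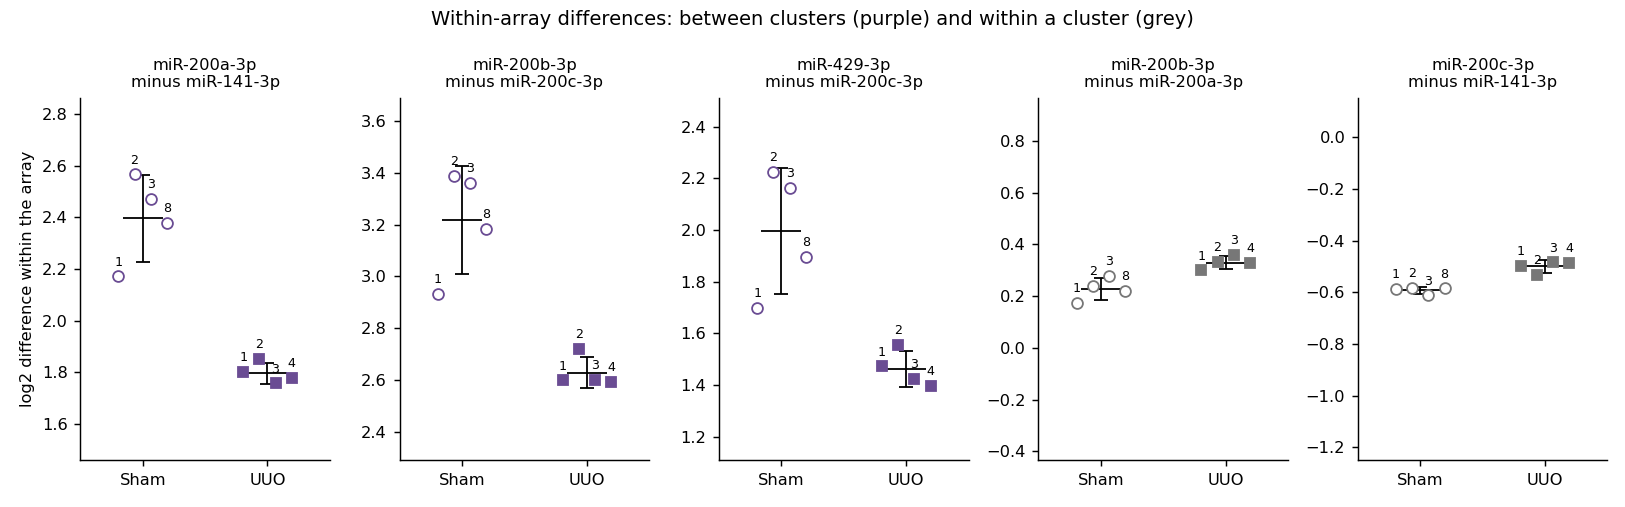
Log2 difference between a pair of guides on the same array (vertical axis, 1.4 units in each panel) for the 3 same-seed pairs between clusters (purple) and for 2 pairs within a cluster (grey), with Sham as open circles, UUO as squares and bars for the mean ± SD of 4 arrays. The between-cluster differences fell by 0.53 to 0.60, and the within-cluster differences shown rose by 0.09 and 0.10. The within-cluster pairs not shown changed by -0.16 (miR-200a-3p with miR-429-3p, without overlap) and -0.06 (miR-200b-3p with miR-429-3p, with overlap).

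The chromosome 4 mean was lower in UUO under all of 8 scalings, while the chromosome 6 mean was higher in 6 and lower in 2. The order of the clusters was the same in all 8, but a factor that multiplies a whole array cannot alter it. The scaling used here, the percentile over all probes, no scaling and the dmr features differ only by such factors. Across the 8 scalings the median change of all tested miRNAs moved from -0.23 to 0.34, and the members moved with it. As computed, miR-200b-3p, miR-200a-3p and miR-200b-5p were called lower in 6 of 8 scalings and miR-429-3p and miR-200a-5p in 5, while miR-200c-3p and miR-141-3p were called higher in 3 and stood below 0, uncalled, in 2. Relative to that median, all 5 chromosome 4 members stood below 0 and both chromosome 6 guides above 0 in all 8. The relative change ran from -0.43 to -0.11 for miR-200b-3p, from -0.55 to -0.08 for miR-200a-3p and from -0.37 to -0.25 for miR-429-3p. It ran from 0.19 to 0.23 for miR-200c-3p and from 0.08 to 0.16 for miR-141-3p. The difference between the cluster means changed by -0.59 to -0.32, and by the same -0.56 under each of the scalings that differ only by a factor. Such factors also leave the changes relative to the median nearly unmoved.

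**Figure D4:**
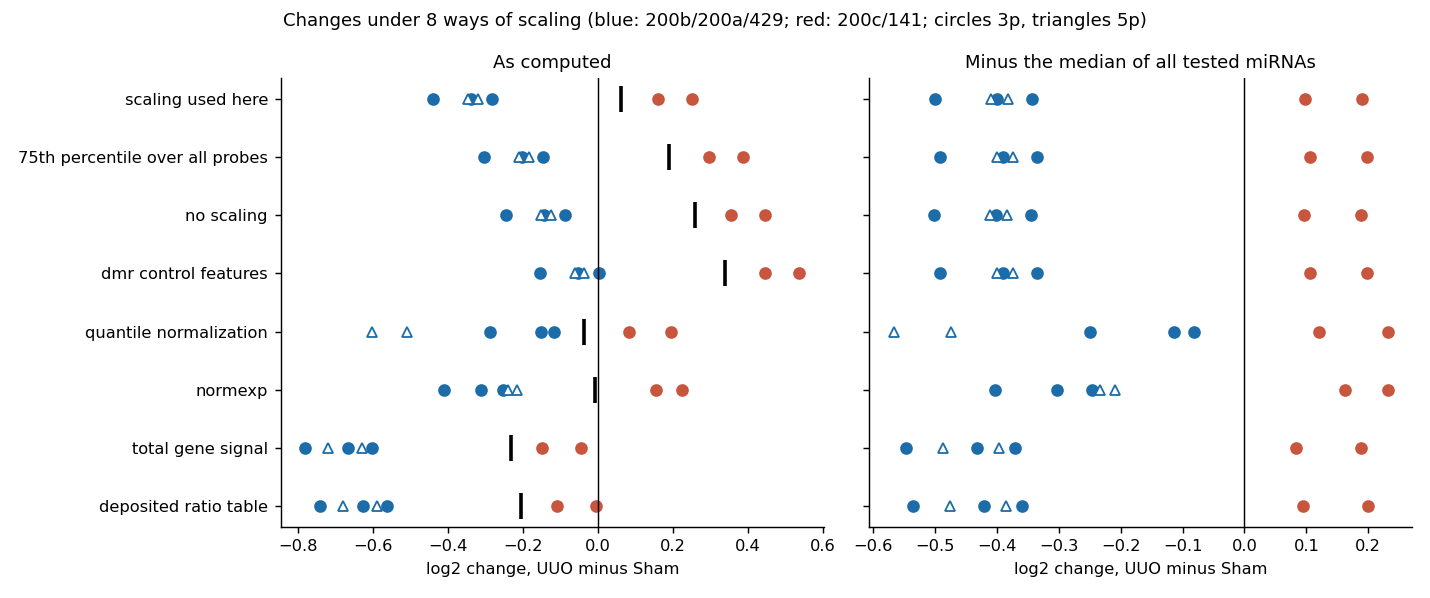
Change of the 7 tested members (log2, UUO minus Sham, horizontal axis) under 8 ways of scaling the arrays, as computed (left, with a black tick at the median of all tested miRNAs) and after subtracting that median (right), with guides as circles and opposite strands as triangles. The chromosome 6 guides (red) lie to the right of the chromosome 4 members (blue) in every row. The scaling used here, all probes, no scaling and dmr differ only by a factor per array, which cannot alter that order. On the left both clusters shift with the median, so that miR-200c-3p and miR-141-3p lie below 0 for the total gene signal and the deposited ratio table and miR-429-3p lies at 0.00413 for the dmr features.

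The miRNAs with the most similar profile also differed between the clusters. Likeness was measured as the root-mean-square difference over the 8 arrays of log2 signals centred on their own mean, among 407 other tested miRNAs. The nearest to miR-200b-3p outside the family were miR-151-5p (0.0301), miR-22-5p (0.0380) and miR-6368 (0.0407). Those nearest to miR-429-3p were miR-151-5p (0.0251), miR-22-5p (0.0258) and miR-345-5p (0.0347). miR-200a-3p was nearest to miR-30d-5p (0.0378), miR-29a-3p (0.0487) and miR-26b-5p (0.0516).

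For miR-200c-3p the nearest of all tested miRNAs was its cluster partner miR-141-3p, and the reverse held too (0.0487). Outside the family, miR-200c-3p was nearest to miR-27a-3p (0.0876), miR-181c-5p (0.102) and miR-143-3p (0.108), and miR-141-3p to miR-27a-3p (0.102), miR-10a-3p (0.104) and miR-1906 (0.105). From the chromosome 4 guides, the chromosome 6 guides ranked 172nd to 222nd of the 407. These distances include the difference between the groups and describe profiles over 8 arrays only.

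Other miRNAs with known cell types give the setting in which the family was measured, as counts of calls against the 27.7% and 39.7% of all tested miRNAs called lower and higher. Of 8 tested miRNAs typical of kidney tubule, 7 fell and 0 rose, with a median of -0.92 against 0.06 for all tested. miR-30e-5p fell by 1.24 ± 0.07, miR-192-5p by 1.14 ± 0.11 and miR-30c-5p by 1.08 ± 0.07 (SE, log2). The summed scaled signal of the tubule list was 73.0 to 77.7 in Sham and 34.8 to 42.3 in UUO. The decreases of the chromosome 4 members were smaller in size than those of these 3 miRNAs, which had the largest decreases of the list. The smallest called decrease of the list, that of miR-30d-5p at 0.48 ± 0.08, was close to the 0.44 ± 0.06 of miR-200a-3p. miR-204-5p, at 0.10 ± 0.05 (adjusted p = 0.0906), was the 1 not called. Across the 8 scalings 6 to 8 of the 8 were called lower and 0 or 1 higher. miR-215-5p was detected on no array.

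Most other epithelial miRNAs rose under the filter used here. Of 7 tested, 5 rose and 1 fell in each of the 8 scalings, all of which let in miRNAs detected in UUO alone. Where detection on all 8 arrays was required, 3 were left, with 2 called higher and 1 lower. The median of the 7 was 1.08, but 0.27 with normexp background correction and 0.46 with the floor doubled. They had summed signals of 0.776 to 1.04 in Sham and 1.05 to 1.33 in UUO. miR-31-5p rose by 1.53 ± 0.28 and miR-182-5p by 1.26 ± 0.14, the latter detected on 2 of 4 Sham arrays. miR-183-5p, also called higher, was likewise detected on 2 of 4 Sham arrays. miR-375-3p was detected on 0 of 4 Sham and 4 of 4 UUO arrays and was at least 2.94-fold higher in UUO, as the UUO mean (-3.43) over the mean of the lowest detected signals of the Sham arrays (-4.98). At the higher floor common to all arrays (-4.89) the ratio was 2.76. All Sham values of miR-375-3p stood at that floor and it was let into the test by the UUO arrays alone. No p-value is therefore given for it, although it counts among the 5 that rose. The 1 that fell was miR-203-3p, an epidermal miRNA detected on 4 of 4 arrays in each group, by 0.87 ± 0.09. The whole list was chosen with earlier results of these data known. miR-205-5p stood at 0.63 ± 0.73 (adjusted p = 0.475).

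Among 9 tested miRNAs linked to epithelial-mesenchymal transition, 4 rose, 2 fell and 3 were not called, with a median of 0.63. That median is the value of miR-205-5p; it ran from 0.20 to 0.90 across the 8 scalings and was 0.25 without Sham 2, 0.34 without Sham 3 and 0.33 without UUO 2. miR-21a-5p, induced in many fibrotic tissues, rose by 2.56 ± 0.04, miR-155-5p, an activation-linked leukocyte miRNA, by 1.48 ± 0.06, and miR-34c-5p, a p53-responsive and ciliated-cell miRNA, by 1.18 ± 0.07. The decreases were in miR-203-3p and miR-10b-5p (-0.31 ± 0.07), and 1 to 3 were called lower across the 8 scalings. Several of these miRNAs are also in other lists, miR-155-5p in the leukocyte list and miR-203-3p and miR-205-5p in the other epithelial list. miR-138-5p was detected on no array.

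With the scaling used here, leukocyte and fibroblast markers had larger changes than the family. The smallest was that of miR-150-5p at 0.59 ± 0.10, against -0.44 ± 0.06 for miR-200a-3p. With the total gene signal miR-200a-3p stood at -0.78, beside medians of 1.38 for the leukocyte and 1.58 for the fibroblast list. All 7 leukocyte miRNAs rose, with miR-223-3p of myeloid cells at 2.30 ± 0.07 and miR-142a-3p of blood cells at 2.28 ± 0.07, and summed signals of 2.39 to 2.83 in Sham and 8.71 to 9.77 in UUO. All 4 fibroblast miRNAs rose, led by miR-214-3p at 2.42 ± 0.06 and miR-199a-5p at 1.95 ± 0.07, with summed signals of 3.72 to 4.18 in Sham and 13.1 to 15.7 in UUO. In the other scalings 6 or 7 of the leukocyte and 4 of the fibroblast miRNAs were called higher. Each array received 100 ng of total RNA, so a signal is relative to all RNA of the tissue. The part of these cells in the family's changes was not tested.

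The smooth muscle miRNAs miR-143-3p and miR-145a-5p stood at 0.24 ± 0.07 (called higher; adjusted p = 0.0191) and -0.15 ± 0.07, with 1 called lower and 0 higher in 3 of the scalings. The endothelial miR-126a-5p stood at -0.22 ± 0.07 (called lower, limma adjusted p = 0.0169) and miR-126a-3p at -0.14 ± 0.06. Under dmr scaling 1 of the 2 was called higher, and under quantile normalization 1 was called higher and 1 lower. Both were called lower with the total gene signal and the ratio table, and neither was called without scaling or with the percentile over all probes. Of 3 tested red blood cell miRNAs 2 fell, miR-451a by 0.84 ± 0.20 and miR-144-3p by 0.81 ± 0.23, although their groups overlapped. miR-486b-5p was not on the array.

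**Figure D5:**
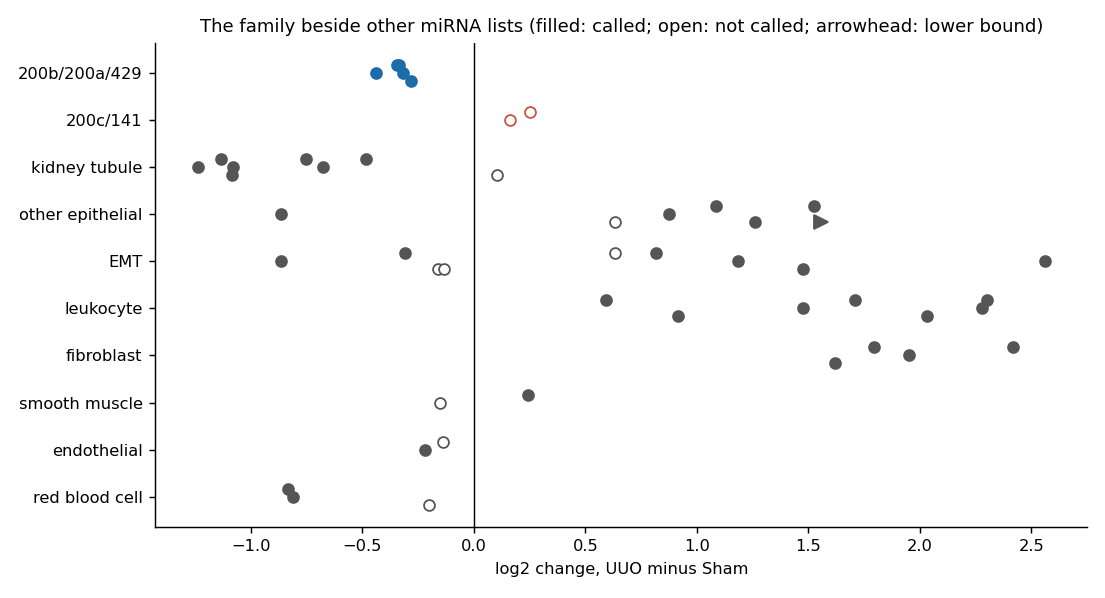
Change of each tested miRNA (log2, UUO minus Sham, horizontal axis) in the chromosome 4 cluster (blue), the chromosome 6 cluster (red) and 8 lists of other miRNAs (grey), filled where called, open where not, with an arrowhead at the lower bound of miR-375-3p. The family lies between -0.44 and 0.25, inside the span from -1.24 for the tubule miRNA miR-30e-5p to 2.56 for miR-21a-5p. With scaling to dmr control features no chromosome 4 member was called.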

How the data were processed

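RNA stripped of its phosphates was ligated to a Cy3 nucleotide for 1-colour Agilent arrays, per the labels' protocols. The scanner software was Agilent Feature Extraction 10.7.3.1, per the submitters' processing notes. The deposited intensities of single spots are background-subtracted but not scaled between arrays, per the file headers. A second deposited table gives ratios to the median of each miRNA, after 1 factor per array whose basis the sources used here do not give. It served as an alternative.

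Outlier spots and control spots were left out and the spots of a probe averaged. Detection needed more than 50% of a probe's spots above background by the scanner's flag. Scaled signals below the highest of the arrays' lowest detected signals (log2 -4.89) were raised to it. Each miRNA was represented by its brightest probe, and family probes were also tested singly. limma 3.58.1 (lmFit, eBayes) in R 4.3.3 compared UUO with Sham, 4 arrays each, with no covariate. The number of arrays limits the precision. Partner differences were tested by exact permutation over samples. The fit was tested on simulated data. The members and lists were chosen with earlier results of these data known. All members and their probes are named, with the 3 nearest miRNAs of each guide and up to 3 called members of each list with the largest change. Alternatives were other scalings, background corrections, summaries, filters, floors, the replicate number as a block and each array left out. The slide position as a block was added after seeing the data.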

Additional observations from a re-analysis of the deposited data

Results flagged for a closer look

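Of 20 groups of 4 values tested for an array far from the rest, 1 stood out, where chance gives about 1 in 20. The log2 difference between miR-200b-3p and miR-200c-3p was 2.72 on UUO 2, while the other 3 UUO arrays lay at 2.59 to 2.60. Toward the Sham range of 2.93 to 3.39, UUO 2 was the nearest. Without UUO 2 the change of this pair was -0.62, against -0.59 with it.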

How the results depend on the processing

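Members called lower were 5 as reported, 3 with the percentile over all probes, 1 without scaling and 0 with dmr control features; 2 were called higher in each of those 3. Probes called lower were then 6, 3 and 1 in place of 12, and probes called higher 4 each time in place of 1, but 0 under quantile normalization and with no filter. The ratio table called 1 member higher, miR-141-5p, and the mean over probes 1, miR-200c-3p. The call of miR-141-5p carries no weight, since the scanner software detected it on 0 of 4 Sham arrays and it entered that test through the UUO arrays alone. All tested miRNAs called lower were 113 as reported, 64 with dmr features, 217 with the total gene signal and 207 with the ratio table; the last 2 also use another summary and detection rule, which left 499 miRNAs to test in place of 408.

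The chromosome 4 mean changed by -0.22 (all probes), -0.16 (no scaling), -0.18 (quantile), -0.0668 (dmr), -0.68 (total signal) and -0.64 (ratio table). The chromosome 6 mean changed by 0.40 without scaling and 0.49 with dmr features, and turned to -0.10 with the total signal and -0.0558 with the ratio table. Single members that turned were miR-429-3p with dmr features (0.00413), miR-200c-3p (-0.0436 and -0.00337) and miR-141-3p (-0.15 and -0.11) with the total signal and the ratio table. The difference between the clusters was -0.32 under quantile normalization, where the pairs changed by -0.20, -0.35 and -0.48. It stayed below 0 in all 21 settings computed, but several of these cannot alter it. The difference was the same -0.56 with the percentile over all probes, no scaling and dmr features. The same held with no filter, with detection required on all arrays and with the floor doubled. The causes were not tested.

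With each array left out in turn, 5 members were called lower each time, 0 to 2 higher (2 without Sham 1), and 0 to 4 probes higher. The pair changes ran from -0.67 to -0.54 (miR-200a-3p with miR-141-3p), -0.68 to -0.53 (miR-200b-3p with miR-200c-3p) and -0.63 to -0.46 (miR-429-3p with miR-200c-3p). With the replicate number as a block, 3 members and 7 probes were called lower and 0 probes higher. Sham 8 and UUO 4 have no same-numbered partner, so that fit rests on the other samples. Deviations of same-numbered samples correlated at -0.000808, 0.124 and -0.303, within the range of differently numbered pairs (-0.449 to 0.383). These correlations cannot show whether the samples were paired. The slide position as a block left 5 members called lower. For single members, 127 of the alternative values kept direction and call, 13 lost the call, 9 gained it and 5 turned. Opposite strands near background limit what can be said of them.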
